A study of Homo sapiens with 2 samples.

Results

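The aminoacyl-tRNA synthetases were examined in C4-2B cells, a human castration-resistant prostate cancer (CRPC) line, after vehicle or (R)-9b, a small-molecule inhibitor of the tyrosine kinase ACK1 (encoded by TNK2). The set was fixed by symbol: 35 genes of the 60671 in the deposited gene count table, of which 19 encode cytosolic enzymes or their subunits and 16 encode mitochondrial enzymes. The rule names genes by function and uses no expression value, but it was written with earlier results of these data known. All 35 had at least 10 counts over both libraries, the minimum used for every comparison. The vehicle group was C4-2B cells given vehicle, and the (R)-9b group was the same line given the inhibitor at 1 µM overnight, a dose and duration taken from the labels. Each group was 1 poly-A RNA library from 1 unmodified cell line. Every value therefore lacks a replicate check, and no p-value is given.

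Aminoacyl-tRNA synthetases join each amino acid to its tRNA, the step that makes the genetic code readable by the ribosome. Cytosol and mitochondria mostly use enzymes from separate nuclear genes, although KARS1 and GARS1 each supply both compartments. Class I and class II enzymes have unrelated catalytic folds. Several cytosolic enzymes sit in the multisynthetase complex on the scaffold proteins AIMP1, AIMP2 and EEF1E1, and the others act as free enzymes. Many cytosolic synthetase genes, and genes for amino acid uptake and synthesis, are known targets of ATF4, the transcription factor of the integrated stress response, which binds C/EBP-ATF response elements.

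The libraries held 65207444 counts (vehicle) and 57653965 counts ((R)-9b). Mitochondrially encoded genes took 1.49% and 9.54% of these counts, and the counts were scaled by the TMM method, under which the median log2 ratio of (R)-9b over vehicle was -0.0049 over the 23446 genes with at least 10 counts. TNK2 had 6946 and 5292 counts, a log2 ratio of -0.15. The labels call the cells breast cancer cells. All 10 prostate markers checked were abundant (KLK3 with 146597 and 297728 counts), whereas the 7 breast markers together had 92 and 44 counts, with SCGB2A2 and ANKRD30A at 0. The 9 immune and stromal markers had 2021 and 2517 counts together, mostly COL1A1 and VWF, and the defining leukocyte marker PTPRC was at 0. In bulk RNA, fewer cells and less RNA per cell cannot be told apart.

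Transcripts of cytosolic synthetases were less abundant after (R)-9b, whereas those of mitochondrial synthetases as a group stayed near the level of all genes. Counts over the 19 cytosolic genes summed to 455396 in vehicle and 251110 in (R)-9b, or 0.698% and 0.436% of each library. After scaling, the sum differed by -0.62 on the log2 scale (95% interval -0.63 to -0.61). Counts over the 16 mitochondrial genes summed to 52704 and 45879, or 0.0808% and 0.0796% of each library, a log2 difference of 0.038 (0.020 to 0.056). Intervals throughout are exact Clopper-Pearson 95% intervals and cover counting error only.

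A gene was said to have fallen or risen where its whole interval lay past 1.5-fold. By this rule 8 of the 19 cytosolic genes fell, beside 7.74% of all genes compared, and none rose, beside 8.71%. Among genes with at least 1000 counts, the range in which every cytosolic synthetase lies, 7.54% fell. Without the 1.5-fold margin, the interval lay wholly below a ratio of 1 for 14 cytosolic genes (31.1% of all genes), wholly above it for 4 (29.8% of all genes) and included it for 1. None of the 16 mitochondrial genes fell, and 1, VARS2, rose on very few counts. The interval lay below a ratio of 1 for 5 mitochondrial genes, above it for 7, and included it for 4. Both mates of a read pair seem to be counted, and with counts halved these numbers were 2, 6 and 8, FARS2, WARS2, NARS2 and EARS2 then including equality, while VARS2 no longer passed 1.5-fold. Of the cytosolic genes, 8 still fell with halved counts, and FARSA also included equality. The median log2 ratio was -0.47 for the cytosolic genes and 0.055 for the mitochondrial genes, a difference of -0.52. The mitochondrial median crossed 0, to -0.0052, when libraries were scaled by total counts.

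**Figure D1:**
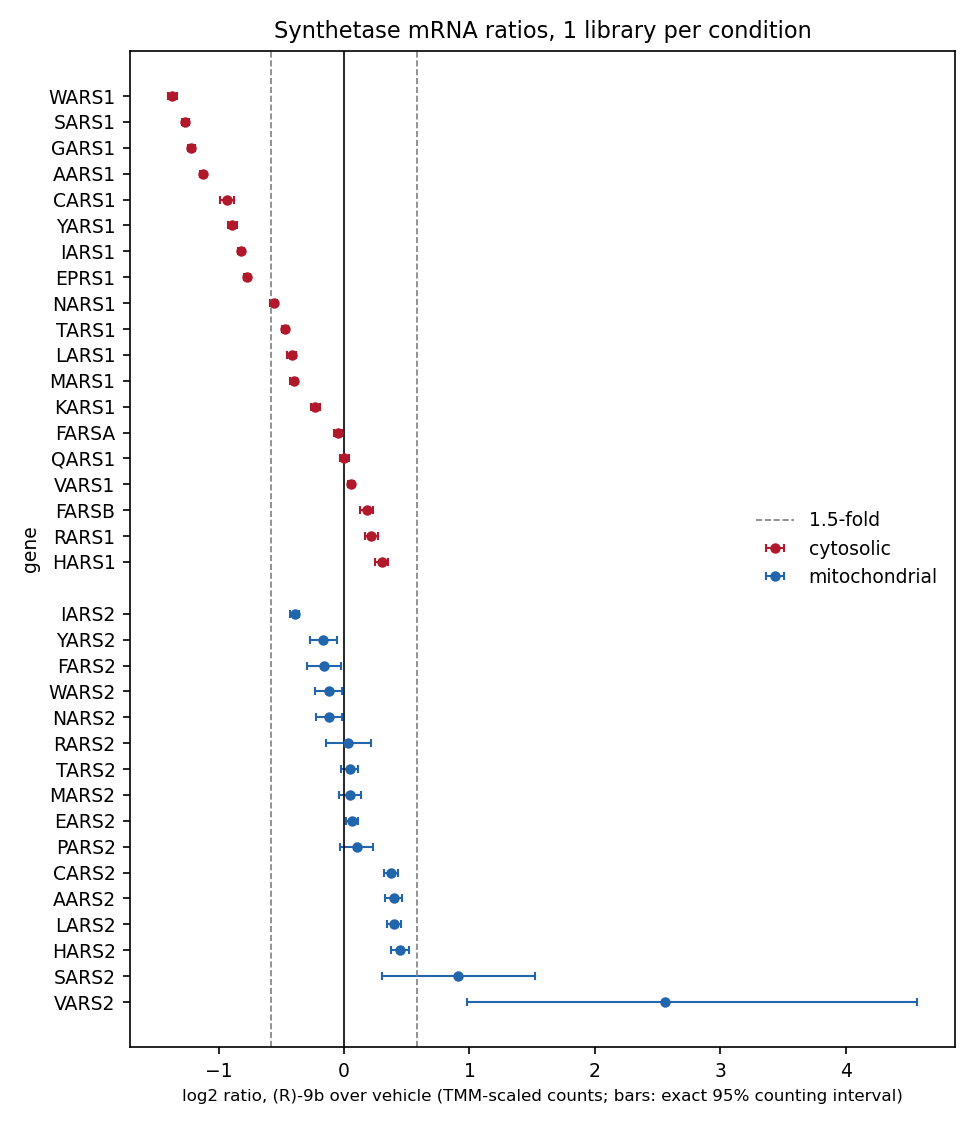
Log2 ratio of (R)-9b over vehicle (x axis, TMM-scaled counts) for each of the 35 synthetase genes (y axis), with cytosolic genes in red and mitochondrial genes in blue. Bars are exact 95% counting intervals and dashed lines mark 1.5-fold; WARS1 lies lowest at -1.37, 8 cytosolic genes lie wholly beyond the lower dashed line, and VARS2 lies far right with an interval from 0.98 to 4.57.

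The C/EBP-ATF element was looked for in the RefSeq promoter windows (GRCh38.p14, 250 bases before to 50 after the transcription start), because 8 cytosolic genes fell and this element is a known binding site of ATF4. The planned motif was TGATGNAAN on either strand, and its case TGATGCAA, whose matches are all also matches of the longer motif, was added after the values were seen. A window was at hand for 16 cytosolic and 14 mitochondrial genes, and none for LARS1, VARS1, YARS1, AARS2 and VARS2. The longer motif was found in 3.61% of the 35116 windows of all genes and the shorter in 0.866%, or in a window of 4.45% and 1.08% of 27305 genes. Of the 16 cytosolic genes, 7 held the longer motif (TARS1, GARS1, IARS1, CARS1, MARS1, AARS1 and NARS1), and all of these but GARS1 held the shorter. Of the 14 mitochondrial genes, 1 (YARS2) held the longer motif and none the shorter. The stretches around the matches are shown 5′ to 3′ on the strand of each gene with the motif in capitals, because they show where in each cytosolic gene the letters lie. All but GARS1 hold the shorter motif. In 5 of the 6 genes with the shorter motif the capitals are its reverse complement.
AARS1 (chr16:70289660-70289719, minus strand): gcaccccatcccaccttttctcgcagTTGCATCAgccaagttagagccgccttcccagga
CARS1 (chr11:3057407-3057436, minus strand): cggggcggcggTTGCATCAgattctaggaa
IARS1 (chr9:92293692-92293721, minus strand): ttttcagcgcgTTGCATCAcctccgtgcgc
NARS1 (chr18:57621804-57621833, minus strand): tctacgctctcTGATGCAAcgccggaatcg
TARS1 (chr5:33440956-33440985, plus strand): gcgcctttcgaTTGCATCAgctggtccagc
MARS1 (chr12:57488053-57488082, plus strand): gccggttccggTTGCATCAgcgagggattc
GARS1, longer motif (chr7:30594834-30594863, plus strand): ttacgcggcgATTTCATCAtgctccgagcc

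The positions of these matches were similar in most of the genes. Counted from the RefSeq start, the shorter motif ran from -13 to -6 in IARS1, from -4 to 4 in MARS1, from -2 to 6 in CARS1, from 3 to 10 in TARS1 and from 15 to 22 in NARS1, so 5 of the 6 touched the start or lay close to it. The AARS1 match lay farther upstream, from -187 to -180, and the longer motif in GARS1 ran from -34 to -26. WARS1 and SARS1, the lowest ratios in the set, had no match in their windows. A match is a description of letters, and no binding was measured.

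The synthetases with and without the element overlapped widely in their ratios. By the planned motif TGATGNAAN, the 7 cytosolic genes with it had a median log2 ratio of -0.82 (range -1.22 to -0.40), and 4 fell, while the 9 without it had a median of -0.04 (range -1.37 to 0.30), and 3 fell. By the shorter motif, which leaves GARS1 among the genes without it, the 6 cytosolic genes with TGATGCAA had a median log2 ratio of -0.69 (range -1.13 to -0.40), and 3 of them fell. The 10 cytosolic genes whose window lacked it had a median of -0.14 (range -1.37 to 0.30), and 4 of them fell. Among all other genes compared, 373 held TGATGNAAN in a window, of which 79 (21.2%) fell and 24 (6.43%) rose. Of the 12338 genes without it, 987 fell and 1031 (8.36%) rose. For the shorter motif, 97 genes outside the synthetases held TGATGCAA in a window. Of these, 31 (32.0%) fell and 5 (5.15%) rose, with a median log2 ratio of -0.30. The 12616 genes whose window lacked it, synthetases included, had a median of -0.0075, with 8.21% that fell and 8.32% that rose. These shares are descriptions of 2 libraries, and whether the element bears on the ratios was not tested.

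**Figure D2:**
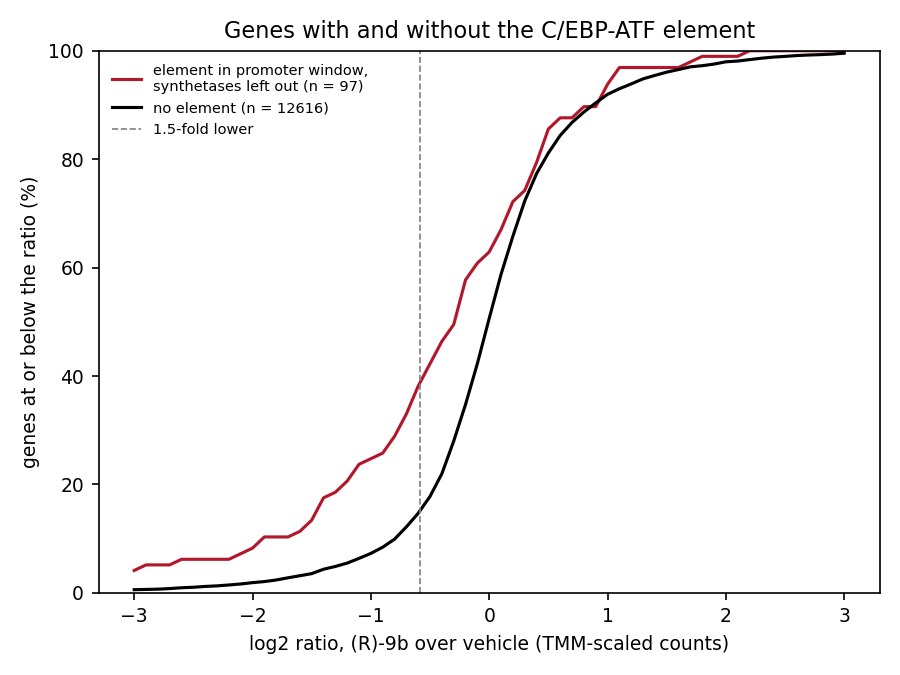
Cumulative share of genes (y axis, %) at or below each log2 ratio of (R)-9b over vehicle (x axis). Red shows the 97 genes with TGATGCAA in a promoter window after the synthetases were left out. TGATGCAA was added after the values were seen, and the planned motif TGATGNAAN is not drawn. Black shows the 12616 genes without it, synthetases included. At a log2 ratio of -0.6 the red line stands at 38.1% and the black line at 14.7%; the lines meet on the right of the plot.

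The largest difference belonged to WARS1, tryptophanyl-tRNA synthetase (chr14:100333788-100376805). It had 25774 counts in vehicle and 8458 in (R)-9b, a log2 ratio of -1.37 (-1.41 to -1.33), or 2.58-fold lower, and it shares 10.6% of its exon bases with genes on the opposite strand. SARS1, seryl-tRNA synthetase (chr1:109213918-109238169), had 34002 and 12011 counts, a log2 ratio of -1.26 (-1.29 to -1.23). The interval of WARS1 lay wholly below that of SARS1, whereas the intervals of SARS1 and GARS1 overlapped. GARS1, glycyl-tRNA synthetase (chr7:30594681-30634033), had 36538 and 13324 counts, a log2 ratio of -1.22 (-1.25 to -1.19). AARS1, alanyl-tRNA synthetase (chr16:70252295-70289543), had 60697 and 23584 counts, a log2 ratio of -1.13 (-1.15 to -1.10). These 4 genes were each more than 2-fold lower over their whole interval, and all 4 encode enzymes that act outside the multisynthetase complex.

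A further 4 genes fell by a smaller ratio. CARS1, cysteinyl-tRNA synthetase (chr11:3000922-3057613), had 8309 and 3696 counts, a log2 ratio of -0.93 (-0.99 to -0.87). YARS1, tyrosyl-tRNA synthetase (chr1:32775237-32818153), had 20930 and 9579 counts, a log2 ratio of -0.89 (-0.92 to -0.85). The intervals of these 2 genes overlapped. IARS1, isoleucyl-tRNA synthetase (chr9:92210207-92293756), had 36616 and 17577 counts, a log2 ratio of -0.82 (-0.85 to -0.80). EPRS1, which carries glutamyl and prolyl activities in 1 polypeptide (chr1:219968601-220046658), had 37320 and 18509 counts, a log2 ratio of -0.77 (-0.80 to -0.75). IARS1 and EPRS1 are the members of the multisynthetase complex among the 8 genes that fell.

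NARS1, asparaginyl-tRNA synthetase (chr18:57600656-57622213), lay at the edge of the rule. It had 25616 and 14719 counts, a log2 ratio of -0.56 (-0.59 to -0.53), so that its interval spanned 1.5-fold. Its transcript estimates, on 1.70% of its vehicle gene count, gave -0.05. TARS1 (threonine) had 32980 and 20210 counts, a log2 ratio of -0.47. LARS1 (leucine) had 14276 and 9059 counts and MARS1 (methionine) 23584 and 15137, with log2 ratios of -0.42 and -0.40. KARS1 (lysine), a gene whose isoforms serve both cytosol and mitochondria, had 15034 and 10872 counts, a log2 ratio of -0.23. These 5 genes had lower levels in (R)-9b without passing the 1.5-fold rule.

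The remaining 6 cytosolic genes lay near or above equality. FARSA and FARSB, the catalytic and the partner subunit of phenylalanyl-tRNA synthetase, had log2 ratios of -0.04 (17470 and 14370 counts) and 0.18 (5832 and 5608 counts). QARS1 (glutamine) had 17099 and 14540 counts and a log2 ratio whose interval, -0.028 to 0.036, included 0, while its transcript estimates, on 6.11% of its vehicle gene count, gave 0.62. VARS1 (valine) had 30576 and 26923 counts and a log2 ratio of 0.05, which became -0.0059 under scaling by total counts. RARS1 (arginine) had 6524 and 6437 counts and HARS1 (histidine) 6219 and 6497, with log2 ratios of 0.22 and 0.30. HARS1 was the only cytosolic gene with a higher raw count in (R)-9b than in vehicle, although that library was the shallower.

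Levels were compared between genes only as CPM (counts as a share of the TMM-scaled library total) per kilobase of annotated exon. The median level of the 19 cytosolic genes was 60.9 in vehicle and 47.4 in (R)-9b, and that of 14 mitochondrial genes, with SARS2 and VARS2 left out, was 10.8 in both. AARS1 had the highest level in vehicle, 203, and 92.9 in (R)-9b. FARSA, with 108 and 105, had the highest level in (R)-9b. SARS1 and GARS1 were the next highest in vehicle, at 133 and 132, and stood at 55.5 and 56.8 in (R)-9b. At the other end, HARS1 (11.9 and 14.7) and CARS1 (12.4 and 6.52) had the lowest cytosolic levels by this measure, in the range of the mitochondrial genes. The divisor joins all annotated exons of a gene, 7853 bases for HARS1 and 10037 for CARS1, so this ranking depends on the annotation. By CPM alone in vehicle, FARSB was the lowest cytosolic gene at 87.6, with HARS1 at 93.4 and CARS1 at 125. The cytosolic levels ranged from 11.9 to 203 in vehicle and from 6.52 to 105 in (R)-9b. Across the 19 cytosolic genes the log2 ratio had a Pearson correlation of -0.46 and a Spearman correlation of -0.50 with the log2 level in vehicle. That level is also the denominator of the ratio, and with the mean level of both libraries the correlations were -0.24 and -0.33. These are descriptions across genes, which are not independent replicates.

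**Figure D3:**
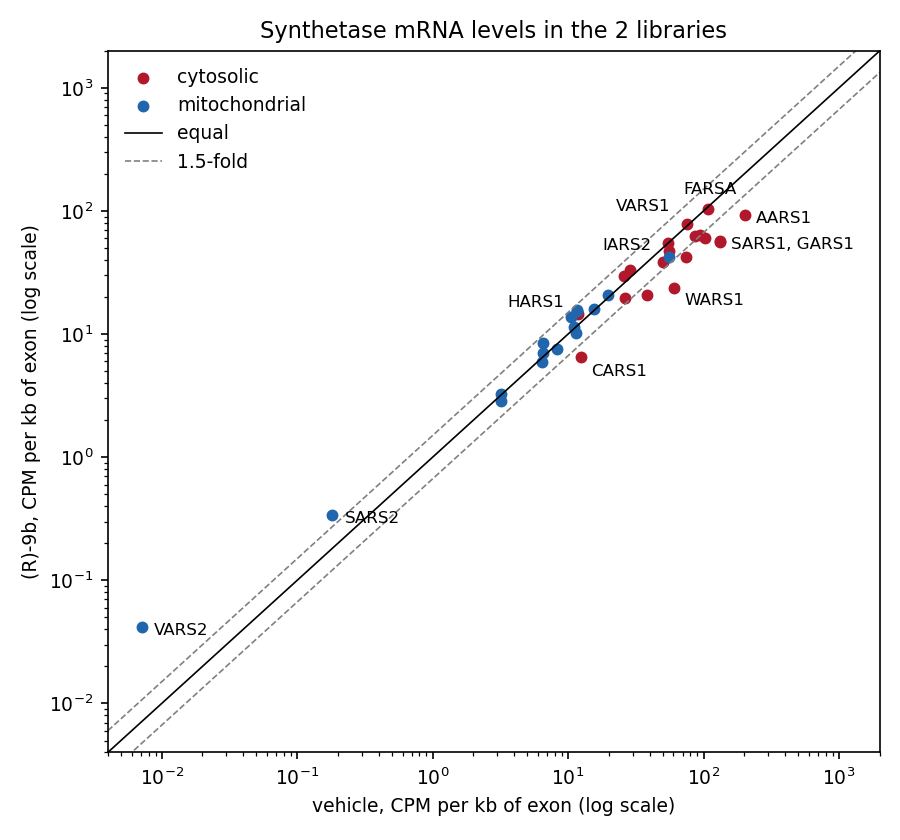
Level in (R)-9b (y axis) against level in vehicle (x axis) for the 35 genes, both as TMM-scaled CPM per kilobase of exon on log scales, with 1 point per gene, a solid line at equality and dashed lines at 1.5-fold. AARS1 lies at 203 and 92.9, well under the line, FARSA lies close to the line at 108 and 105, and SARS2 and VARS2 stand apart at the lower left.

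Enzymes of both classes were among those whose genes fell, beside 7.74% of all genes compared. Of the 9 cytosolic class I genes 4 fell (WARS1, CARS1, YARS1 and IARS1), with a median log2 ratio of -0.42. Of the 9 class II genes 3 fell (SARS1, GARS1 and AARS1), with a median of -0.47. EPRS1 holds a class I and a class II domain and was counted in neither. The 7 genes of the multisynthetase complex had a median of -0.40, and 2 fell. The 12 genes of free enzymes had a median of -0.73, and 6 fell. Summed counts differed by -0.47 on the log2 scale for the complex (-0.48 to -0.46) and by -0.70 for the free enzymes (-0.71 to -0.69). Both groups spanned equality, since RARS1 of the complex and HARS1 of the free enzymes had ratios above it. Genes are not replicates, and the difference between the groups was not tested.

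Of the scaffold genes of the complex, AIMP2 and EEF1E1 had ratios within the range of its enzyme genes, and AIMP1 lay just above it. AIMP2 had 6340 and 3785 counts, a log2 ratio of -0.51, and EEF1E1 had 404 and 259 counts, a log2 ratio of -0.40. AIMP1 had 3297 and 3289 counts, a log2 ratio of 0.23. None of the 3 passed the 1.5-fold rule. Outside the fixed set, TARS3, a threonyl-tRNA synthetase closely related to TARS1, had 625 and 499 counts, a log2 ratio of -0.09 with an interval from -0.26 to 0.09.

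Apart from SARS2 and VARS2, the mitochondrial genes lay between -0.39 and 0.44 on the log2 scale. IARS2 (isoleucine) had 15501 and 10010 counts, a log2 ratio of -0.39 (-0.43 to -0.36), and was the lowest of them. It was also the most abundant, at 55.9 and 42.6 CPM per kilobase. YARS2, FARS2, WARS2 and NARS2, the enzymes for tyrosine, phenylalanine, tryptophan and asparagine, had log2 ratios between -0.17 and -0.12, each on 783 to 1735 counts per library. The intervals of RARS2, TARS2, MARS2 and PARS2 (arginine, threonine, methionine and proline) included 0. EARS2 (glutamate) had 7564 and 6701 counts, a log2 ratio of 0.06.

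A small group of mitochondrial genes had higher levels in (R)-9b. CARS2 (cysteine) had 4581 and 5033 counts, a log2 ratio of 0.37 (0.32 to 0.43). AARS2 (alanine) had 3349 and 3739 counts and LARS2 (leucine) 4759 and 5320, each with a log2 ratio of 0.40. HARS2 (histidine) had 2881 and 3323 counts, a log2 ratio of 0.44 (0.37 to 0.52). The intervals of these 4 genes overlapped between neighbours among them, lay above that of PARS2, the next lower gene, and did not pass 1.5-fold. HARS1 and HARS2 are divergent genes that share 437 exon bases on opposite strands. The strand setting of the counting is not given in the sources used here, so reads from this stretch may have been lost from both genes or counted for either.

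SARS2 and VARS2 (serine and valine) had too few counts to be read with the rest. SARS2 had 39 and 62 counts, a log2 ratio of 0.91 (0.31 to 1.52), and 57% of its exon bases are shared with other genes in the reference annotation. Whether this sharing bears on its low count was not tested. VARS2 had 4 and 20 counts, a log2 ratio of 2.56 (0.98 to 4.57), and shares 22% of its exon bases with GTF2H4, which itself had 4 and 8 counts. In the deposited transcript table, the gene identifier of VARS2 had 507 and 325 estimated counts, and the 6 identifiers under that symbol had 1415 and 1226 together, a log2 ratio of 0.041. SARS2 had 130 and 124 estimated counts, a log2 ratio of 0.18. The rise of VARS2 was not seen in the transcript estimates. Without these 2 genes, 5 mitochondrial genes had intervals below a ratio of 1, 5 above it and 4 including it, and the median log2 ratio was 0.046.

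Enzymes for the same amino acid were then set side by side. Of the 17 pairs of a cytosolic and a mitochondrial gene, the cytosolic ratio was the lower in 14, the higher in 1, and not separated within counting error in 2. Without SARS2 and VARS2 it was the lower in 12 of 15 pairs, with a median difference of -0.51 on the log2 scale. The alanine pair differed most among these, by -1.52 (-1.59 to -1.45). AARS1 stood at 17.3 times the level per kilobase of AARS2 in vehicle and at 6.03 times in (R)-9b. The cysteine pair differed by -1.30 (-1.38 to -1.22), and the order of its levels turned: CARS1 was 1.89 times CARS2 in vehicle and 0.765 times in (R)-9b. By this measure the order also turned in the isoleucine and histidine pairs. IARS1 was 1.33 times IARS2 in vehicle and 0.988 times in (R)-9b, and HARS1 was 1.03 and 0.930 times HARS2. The tryptophan pair differed by -1.25 (-1.36 to -1.14), with WARS1 at 9.46 and 3.99 times the level of WARS2.

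The other pairs differed less. On the log2 scale EPRS1 differed from PARS2 by -0.88 and from EARS2 by -0.84. The leucine pair differed by -0.82 and the tyrosine pair by -0.72. The threonine, methionine, asparagine and isoleucine pairs differed by -0.51 to -0.43. Within the isoleucine pair both genes were lower in (R)-9b, and within the histidine pair both were higher, with a difference of -0.14 (-0.23 to -0.06). Phenylalanine and arginine were the exceptions. FARSB exceeded FARS2 by 0.34 (0.19 to 0.48), FARSA and FARS2 differed by 0.11 (-0.03 to 0.25), and RARS1 and RARS2 by 0.18 (-0.002 to 0.37).

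**Figure D4:**
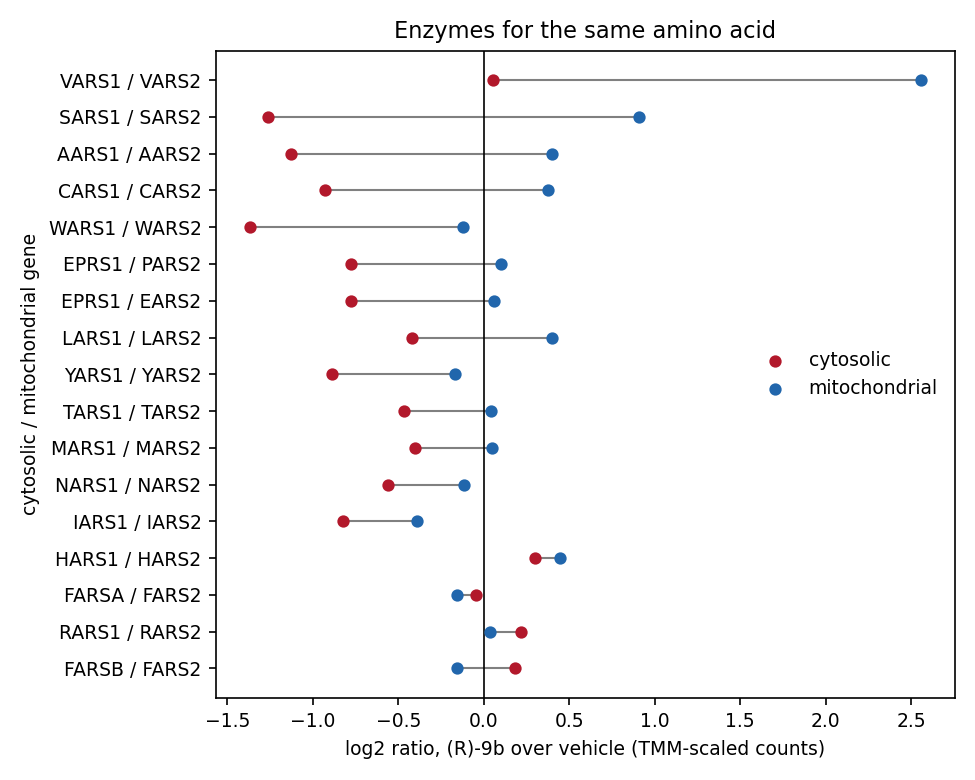
Log2 ratio of (R)-9b over vehicle (x axis, TMM-scaled counts) for the cytosolic (red) and mitochondrial (blue) gene of each of the 17 pairs (y axis), joined by a grey line, with a vertical line at equality. The red point lies left of the blue in 14 of 17 pairs, by -1.52 for alanine, and right of it for phenylalanine and arginine.

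Genes that overlap MARS1 differed by more than MARS1 itself. MARS1 shares 355 exon bases on the opposite strand with DDIT3, which encodes the stress-induced transcription factor CHOP and had 17941 and 737 counts, a log2 ratio of -4.37. It shares a further 519 with ARHGAP9, which had 88 and 20 counts. How far reads from these stretches entered the MARS1 counts was not tested. The estimated transcript counts of MARS1 were 875 and 820, only 3.71% of its gene count in vehicle, and gave a log2 ratio of 0.15, opposite in sign to the gene counts.

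The transcript table was also used to ask which isoforms carried the changes. Its estimated counts summed to 33.5% and 33.3% of the gene counts, and its shares have no counting interval because the counts are estimates. In EPRS1 the transcript EPRS1-201 held 97.4% of the estimated counts in vehicle and 97.1% in (R)-9b, and in SARS1 the transcript SARS1-201 held 89.1% and 88.9%. In IARS1, IARS1-204 held 69.3% and 66.5%. The main isoform of these genes was therefore the same in both libraries. In WARS1, WARS1-204 held 50.1% and 45.7% and WARS1-203 held 28.2% and 37.0%, so that both were lower in amount and the second less so. In GARS1, GARS1-201 held 52.4% and 46.5%. In KARS1, KARS1-201, with a reading frame of 597 codons, held 83.8% and 80.6%, and KARS1-202, with 625 codons, held 12.6% and 15.0%.

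Of the genes described, HARS2, LARS2 and AARS1 had isoform shares that differed by more than 10 percentage points. In HARS2, HARS2-201 held 72.5% in vehicle and 50.5% in (R)-9b, and HARS2-218 held 19.5% and 35.6%, on 1133 and 1343 estimated counts in all. In LARS2, LARS2-201, annotated as a target of nonsense-mediated decay, held 17.3% and 6.35%, and the protein-coding LARS2-208 held 4.40% and 15.7%. In AARS1, AARS1-215 held 24.3% and 13.0%, on estimated counts that came to only 14.6% of its vehicle gene count. For MARS1, NARS1, QARS1, NARS2, YARS2 and RARS2 the estimated counts came to no more than 6.11% of the vehicle gene count, and their isoforms are not described. Nor are those of SARS2 and VARS2, whose shares shifted further, since their gene counts and transcript estimates disagree.

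Genes of the ATF4 pathway and of amino acid supply were mostly lower in (R)-9b. Over all genes compared, 7.74% fell and 8.71% rose. Of 12 regulators 8 fell and 1 rose, with a median log2 ratio of -1.61. ATF4 itself had 73113 and 27486 counts, a log2 ratio of -1.17, ATF3, a transcription factor induced by it, had -3.55, and EIF2AK4, the kinase GCN2 that senses uncharged tRNA, had 8029 and 10971 counts, a log2 ratio of 0.69. All 9 amino acid transport genes fell, with a median of -1.19. Among them SLC6A9, a glycine transporter, had -2.41 and SLC3A2, the shared heavy chain of several exchangers, -1.74, while SLC7A5 (leucine and other large neutral amino acids) and SLC1A5 (glutamine) had -0.64 and -0.62. The upper bounds of SLC7A5 and SLC1A5, -0.614 and -0.588, lie close to the 1.5-fold margin. Their calls were not checked with halved counts or other scalings. Of 11 amino acid synthesis genes 6 fell, with a median of -0.93. CTH, which makes cysteine, had -1.87 and MTHFD2, of mitochondrial folate metabolism, -1.59, whereas ALDH18A1 (proline synthesis) and CBS (transsulphuration) had 0.11 and 0.55. The medians of these 3 lists lay below that of the cytosolic synthetases. Where a promoter window was at hand, 5 of 8 transport genes, 2 of 10 regulators and 1 of 7 synthesis genes held TGATGNAAN. The shorter TGATGCAA was held by 2, 1 and 0 of them, beside 4.45% and 1.08% of all genes for the 2 motifs.

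The 3 cytosolic elongation factor genes that could be compared had a median log2 ratio of -0.08, and none passed 1.5-fold. EEF1A1, which delivers charged tRNA to the ribosome, had 610642 and 417982 counts, a log2 ratio of -0.31. The 10 mitochondrial translation factor genes had a median of -0.07, and none passed 1.5-fold. The 17 genes of tRNA processing and export had a median of 0.11, with 1 that fell and 1 that rose, which is no more than the 7.74% and 8.71% over all genes give. The gene that fell was XPOT, the exporter of tRNA from the nucleus, with 42807 and 17784 counts, a log2 ratio of -1.03. The order of the lists and the spread within each are shown in the plot of gene lists.

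**Figure D5:**
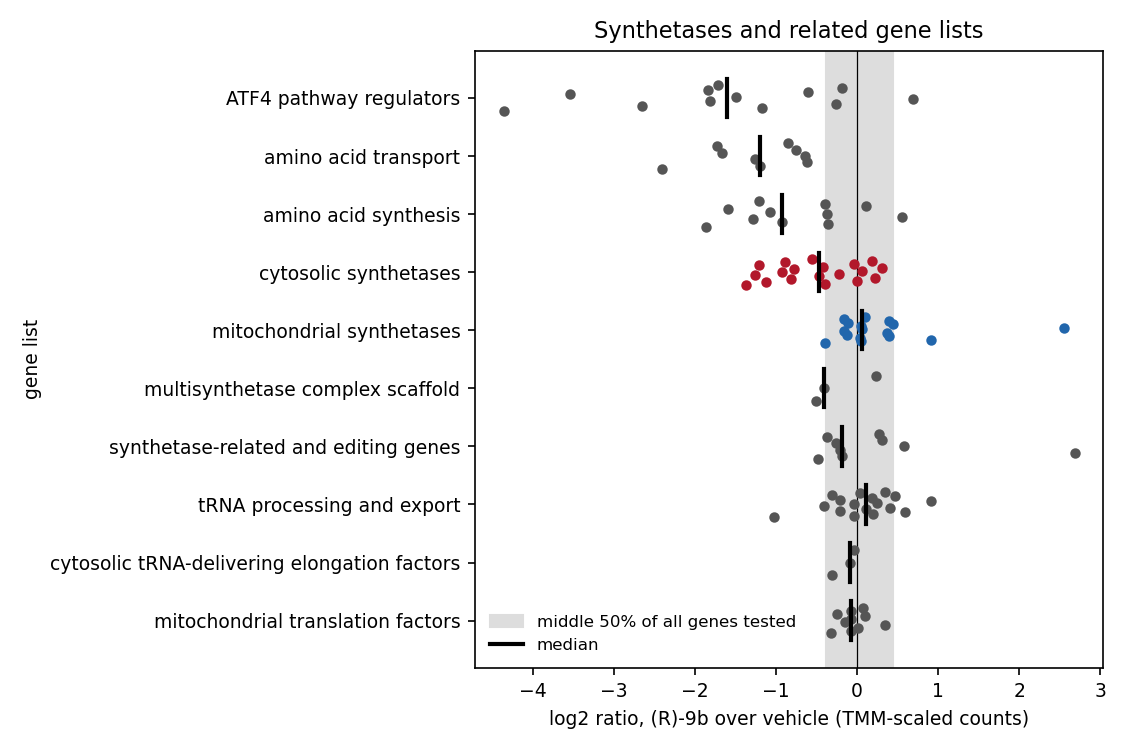
Log2 ratio of (R)-9b over vehicle (x axis, TMM-scaled counts) for each gene with at least 10 counts (points) in 10 gene lists (y axis), with the list median as a black bar and the middle 50% of all genes compared in grey, from -0.39 to 0.44. The medians run from -1.61 for ATF4 pathway regulators through -0.47 for cytosolic synthetases to 0.055 for mitochondrial synthetases and 0.11 for tRNA processing and export.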

How the data were processed

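Poly-A RNA from C4-2B cells was sequenced with paired reads of 150 bases, 1 library per condition. The labels' processing notes name STAR 2.5.1a, featureCounts 1.4.6-p5, Salmon 0.8.2 and the build hg38, whereas the methods of the study name another STAR version with Ensembl release 101. The authors deposited raw gene counts, made from reads with 1 unambiguous alignment. Among genes with 1 to 20 counts, 72.2% (vehicle) and 70.3% ((R)-9b) were even, so mates seem to be counted separately and counting intervals are too narrow. The authors also deposited the same genes as CPM and as moderated log2 CPM, and transcripts as estimated counts, which served as alternatives; transcript CPM and log2 tables were not used. No column belonged to other samples.

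Repeated gene lines were dropped. Counts were scaled by TMM (edgeR 4.0.16, R 4.3.3), and intervals came from scipy 1.17.1 under Python 3.11.15 (with numpy 2.4.6, pandas 2.3.3). The intervals were checked on simulated counts drawn without separately counted mates, so that check does not cover this feature of the data. With 1 library per condition no model of replicate spread was fitted. Differences within a pair of genes have normal-approximation 95% intervals from counting error, unlike the exact intervals elsewhere. A gene was called where its whole interval lay past 1.5-fold. At this depth, the interval of a gene with 10 counts spans several fold and that of an abundant gene a few percent.

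Exon lengths, gene coordinates and overlaps came from GENCODE 29 (Ensembl 94) on GRCh38, an older release than the authors' annotation, and promoter windows from RefSeq (GRCh38.p14). Members, gene lists and tests were chosen with earlier results of these data known. All members were named, and from each list up to 4 genes, the 2 lowest and the 2 highest ratios; ATF4, HSD17B10, ELAC2, TSEN54, QRSL1, GATC, some cell markers and the genes overlapping members were named beyond that rule, after their values were seen. Some genes of these lists are not reported here. TGATGCAA and the set without SARS2 and VARS2 were also added after the values were seen. Figures were drawn with matplotlib 3.10.9. Alternatives were other scalings (total counts, DESeq2 1.42.0 size factors, upper quartile, TMM without mitochondrially encoded genes), the other deposited units, halved counts, 5 added counts, other folds and other minimum counts.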

Additional observations from a re-analysis of the deposited data

How the results depend on the processing

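Of the 19 cytosolic genes, 8 or 9 fell under every scaling, unit, minimum count and count adjustment tried, 12 with a smaller margin than 1.5-fold and 4 with a fold of 2. The cytosolic median log2 ratio, -0.47, was -0.53 with total counts, deposited CPM (-0.528905) or moderated log2 CPM (-0.528894), -0.43 with upper quartile scaling and -0.37 with estimated transcript counts. Its difference from the mitochondrial median stayed between -0.52 and -0.46. The number of mitochondrial genes that rose was 1, but 2 with deposited CPM, moderated log2 CPM or the ratio without its interval, 4 with the smaller margin, and 0 with transcript counts, halved counts, 5 added counts, a fold of 2, a minimum of 1000 counts or without SARS2 and VARS2, and it turned on those 2 genes except with the smaller margin. None fell, except 1 with the smaller margin. Transcript counts reversed MARS1 (0.15), VARS2 (-0.39) and YARS2 (0.18) and moved NARS1 to -0.05 and QARS1 to 0.62, and total counts, CPM and moderated log2 CPM reversed VARS1 (-0.0059). The shift between scalings, -0.060 to 0.036, accounts for VARS1, and for the others the cause was not tested. RARS2 had too few transcript counts for a value. No paired analysis was possible because each condition had 1 library, and leaving out a replicate was likewise not possible. The gene counts of SARS2 and VARS2 are too few for a firm ratio at a depth where the transcript table gives them more, and the spread between cultures is unknown.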

Other observations

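Among the genes of tRNA processing and export, apart from XPOT, the values were mostly near or above equality. PRORP, the protein-only ribonuclease of mitochondrial RNase P, had 171 and 273 counts, a log2 ratio of 0.91 (0.63 to 1.20), and its partner TRMT10C, a tRNA methyltransferase, had 1209 and 1542 counts, a log2 ratio of 0.59 (0.48 to 0.70). HSD17B10, the other subunit of that enzyme, had 7705 and 6335 counts, a log2 ratio of -0.04 with an interval that included 0. ELAC2, which trims the 3′ ends of tRNA precursors in nucleus and mitochondria, had a log2 ratio of 0.47 (0.42 to 0.51). TSEN15, a subunit of the tRNA splicing endonuclease, had -0.41, whereas its partner TSEN54 had 0.19. Only PRORP passed the 1.5-fold rule upwards among the 17 genes. Its lower bound of 0.63 lies close to that margin, and its call was not checked with halved counts.

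Of 9 genes related to the synthetases or to tRNA editing, none fell and 1 rose, beside 7.74% and 8.71% of all genes compared. PSTK, which phosphorylates seryl-tRNA for selenocysteine synthesis, had 646 and 393 counts, a log2 ratio of -0.48 (-0.66 to -0.30). The subunits of the mitochondrial enzyme that makes glutaminyl-tRNA differed in sign: GATB had -0.37, QRSL1 0.27 and GATC 0.31. MTFMT, which formylates the mitochondrial initiator tRNA, had 1252 and 1583 counts, a log2 ratio of 0.58 (0.47 to 0.68). AARSD1, an alanyl-tRNA editing gene, rose, with 15 counts in vehicle and 82 in (R)-9b and a log2 ratio of 2.69 (1.88 to 3.59). Among the mitochondrial translation factors, the initiation factor gene MTIF3 had -0.32 and the release factor gene MTRF1L 0.35.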
